A study of Mus musculus with 9 samples.

Results

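The 10 genes described here encode enzymes of the S-adenosylmethionine (SAM) cycle, partners of these enzymes and proteins related to them. The enzymes make methionine from homocysteine, turn it into SAM and break down the product of SAM use. The 10 genes are Mtr, Mtrr, Bhmt, Bhmt2, Mat1a, Mat2a, Mat2b, Ahcy, Ahcyl1 and Ahcyl2. They were chosen by name, and all 10 were found among the 24063 gene symbols of the deposited tables. The tables come from RNA sequencing of C2C12 cells, an established mouse myoblast line of wild-type genotype that forms multinucleated muscle fibres when serum is low. The cells had been differentiated in DMEM with 2% FBS, and the labelled time is day 3. The 1C-MIM group (3 libraries) received the One-Carbon Metabolite Induced Medium, in which 6 metabolites tied to the one-carbon network were added. The scramble group (3 libraries) had 6 unrelated metabolites added instead, and the control group (3 libraries) stayed in normal medium. Neither the identity nor the dose of a metabolite is stated in the labels, and neither is the origin of replicates from distinct cultures. All p-values thus measure library-to-library spread alone, and that spread may be technical.

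In the SAM cycle, methionine synthase passes a methyl group from folate to homocysteine, with cobalamin as its cofactor. Methionine adenosyltransferase joins the methionine to ATP and so makes SAM, the methyl donor for DNA, RNA, histones and many small molecules. Each methyl transfer leaves S-adenosylhomocysteine, which inhibits methyltransferases and is split by adenosylhomocysteinase into adenosine and homocysteine. The liver has a second remethylation route, through betaine, and an adenosyltransferase of its own, whereas most other tissues rely on methionine synthase and on the adenosyltransferase encoded by Mat2a.

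Sequence is shown for Mat2a, the 1 member that fell. In human cells the RNA methyltransferase METTL16 binds hairpins in the 3' UTR of this mRNA, and splicing and stability of the mRNA depend on the SAM supply. The nonamer of these hairpins is TACAGAGAA in DNA letters, and it was searched for on the sense strand of annotated transcripts. It occurred 5 times in the 3' UTR of mouse Mat2a (GENCODE vM21, build GRCm38, chromosome 6, minus strand, gene at chr6:72432799-72439558). The deposited data were made with build GRCm39 per the submitters' processing notes, so every coordinate here comes from the annotation and not from the tables. The 5 sites lay at chr6:72434245-72434253, chr6:72433461-72433469, chr6:72433282-72433290, chr6:72433167-72433175 and chr6:72432948-72432956. Each is printed 5′ to 3′ on the transcript's strand with the nonamer in capitals, so that the sequence around it can be compared.
Mat2a site 1: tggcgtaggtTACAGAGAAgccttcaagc
Mat2a site 2: ccttgtgataTACAGAGAAgtcacagggc
Mat2a site 3: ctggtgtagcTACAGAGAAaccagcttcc
Mat2a site 4: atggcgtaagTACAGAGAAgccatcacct
Mat2a site 5: gctggtgtggTACAGAGAAgccagcttgt

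Among 21877 protein-coding genes, 993 (4.54%) held this nonamer at least once anywhere in a transcript, and Mat2a was the 1 gene with 5 matches. The other 9 members held none. A match describes the letters and is not evidence of binding in these cells.

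The promoters of Mtr and Mtrr are shown because these genes encode an enzyme and its reactivating partner and rose together. Both genes lie on the minus strand of chromosome 13, Mtr at chr13:12182712-12258113 with 33 exons and Mtrr at chr13:68560780-68582149 with 15 exons. Each stretch runs from 250 bases before the start site to 50 bases after it (RefSeq, build GRCm38.p6), at chr13:12258064-12258363 for Mtr and at chr13:68582120-68582419 for the first of the listed Mtrr starts. Capitals mark CCAAT on either strand, which reads ATTGG on the other strand.
Mtr: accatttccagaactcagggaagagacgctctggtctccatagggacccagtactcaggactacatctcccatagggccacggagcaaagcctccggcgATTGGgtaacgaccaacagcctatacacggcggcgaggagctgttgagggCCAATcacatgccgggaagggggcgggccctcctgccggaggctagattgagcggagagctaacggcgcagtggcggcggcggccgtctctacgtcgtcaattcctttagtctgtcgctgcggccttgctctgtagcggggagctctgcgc
Mtrr: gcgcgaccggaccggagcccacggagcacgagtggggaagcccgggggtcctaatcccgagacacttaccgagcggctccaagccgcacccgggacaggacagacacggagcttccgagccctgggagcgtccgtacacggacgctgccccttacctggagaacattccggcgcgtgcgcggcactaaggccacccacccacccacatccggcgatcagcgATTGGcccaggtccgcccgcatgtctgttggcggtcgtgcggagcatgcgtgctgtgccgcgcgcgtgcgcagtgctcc

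The Mtr stretch held 24 CpG dinucleotides at a GC content of 62.0%, and the Mtrr stretch held 37 at 69.7%. The medians over all promoters were 7 and 52.7%. CCAAT is a common motif and was present in 37.4% of the 32851 promoters of the same length. Among the members it also occurred in promoters of Mat2a, which fell, and of Ahcy, Mat2b and Bhmt. No promoter listed for Ahcyl1, which rose, held it, so the motif does not set the rising members apart.

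Levels are given in CPM, the count of a gene relative to the TMM-normalized total of its library, with 1 transcript per gene. A gene was called where edgeR's quasi-likelihood test gave an adjusted p below 0.05 over all 14006 tested genes, and log2 fold changes carry their SE from that fit. Totals were 29.0 to 33.2 M counts per library. The first principal component (66.7% of the variance) set the 1C-MIM libraries apart, and on the second (11.4%) the library numbered 1 had the highest score in each group. Members were therefore also tested without the 3 libraries numbered 1. Markers of cycling myoblasts fell in 1C-MIM, with 8 of 8 called lower against control and against scramble, beside 24.3% and 23.2% of all tested genes. Their summed level was 692 to 861 CPM in 1C-MIM, 1413 to 1679 CPM in scramble and 1311 to 1721 CPM in control, with no marker at 0. Of 10 muscle fibre markers, 2 rose and 1 fell in both comparisons, and the summed levels overlapped (8256 to 10259 CPM in 1C-MIM, 6494 to 8836 CPM in scramble, 5650 to 10327 CPM in control). The overlap came from the control and scramble libraries numbered 1. For numbers 1 to 3, the sums were 10327, 6474 and 5650 CPM in control and 8836, 6494 and 6703 CPM in scramble. Every other control or scramble library was below every 1C-MIM library. The control and scramble libraries numbered 1 also had the lowest cycling myoblast sums of their groups. Of 6 markers of reserve myoblasts, the mononucleated cells that do not fuse, 3 rose (Pax7, Heyl and Vcam1) and 1 fell (Cd34). Over all tested genes 22.9% were called higher in each comparison. The sums were 853 to 926 CPM in 1C-MIM, 650 to 683 CPM in scramble and 597 to 643 CPM in control. These markers did not move together: between control and 1C-MIM, mean Heyl went from 50.6 to 225 CPM and mean Vcam1 from 165 to 312 CPM. Mean Cd34 went from 123 to 48.1 CPM. Macrophage markers summed to 3.00 to 4.30 CPM in 1C-MIM, 2.69 to 3.29 CPM in scramble and 2.80 to 3.37 CPM in control. Ptprc, Adgre1 (listed as Emr1) and Itgam did not pass the filter. Endothelial markers summed to 0.916 to 1.17 CPM in 1C-MIM, 0.373 to 0.532 CPM in scramble and 0.503 to 0.898 CPM in control. Tek, the 1 of 4 endothelial markers tested, was called higher (log2 fold change 1.63, adjusted p = 0.00170 against control; 1.43, adjusted p = 0.00364 against scramble). The part of these shifts in the members' values was not tested, and in bulk RNA fewer cells of a type and less RNA per cell cannot be told apart.

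Of the 10 members, 7 passed the filter on low counts. In 1C-MIM against control, 3 rose (Mtr, Mtrr and Ahcyl1), 1 fell (Mat2a) and 3 were not called (Mat2b, Ahcy and Ahcyl2). The share called over the 14006 genes was 47.3%, with 22.9% higher and 24.3% lower, so 4 of 7 is near the background. Those 4 members were also the ones whose 1C-MIM libraries did not overlap control, which 55.5% of tested genes shared. The same members were called in the same directions in 1C-MIM against scramble, where 46% of tested genes were called, 22.9% higher and 23.2% lower. Both comparisons use the same 1C-MIM libraries. There 5 of 7 members, the same 4 and Mat2b, did not overlap scramble, against 59.5% of tested genes. In scramble against control none of the 7 was called, nor was any tested gene (0%). In that comparison 482 genes had an unadjusted p below 0.05 by edgeR and DESeq2 called 30. The members' median log2 fold change was 0.09 against control, beside -0.01 over all tested genes, and 0.13 against scramble, beside -4e-04.

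**Figure D1:**
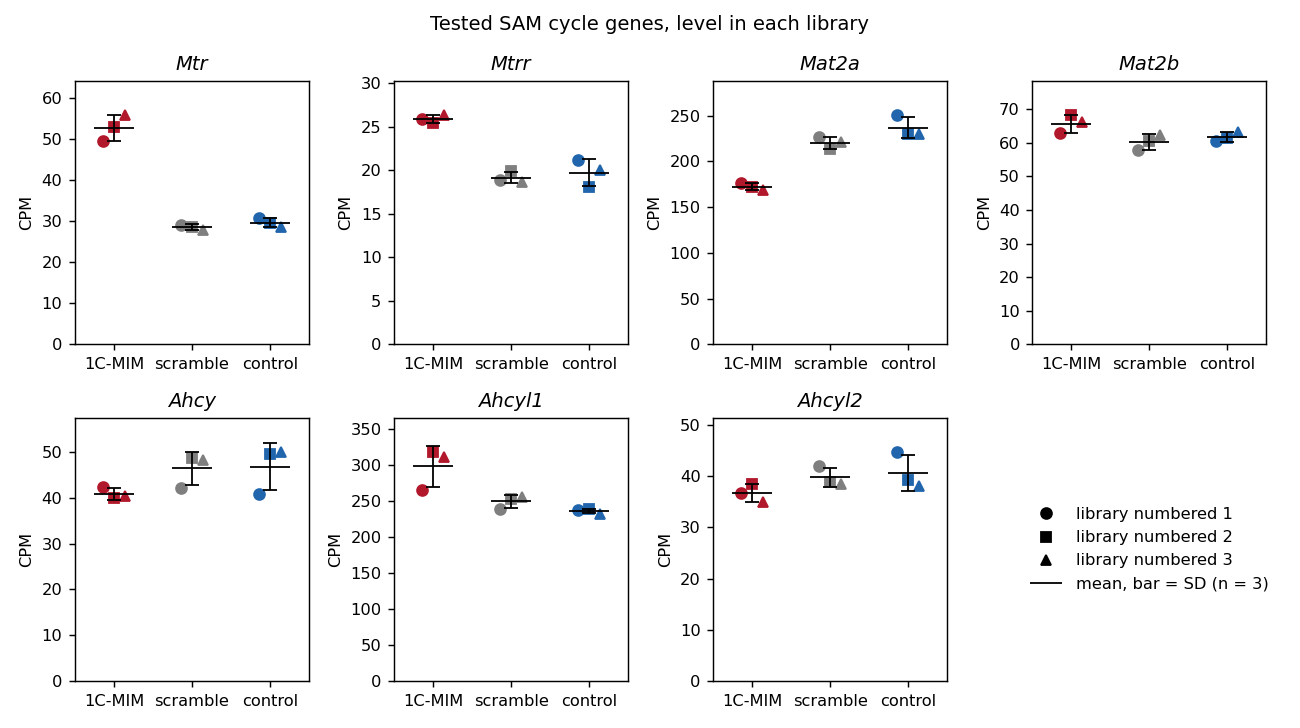
Level of the 7 tested members in each of the 9 libraries, in CPM on linear axes that start at 0; marker shapes give the library number, and horizontal bars with whiskers give the mean and SD of 3 libraries for 1C-MIM, scramble and control. The 1C-MIM libraries lie above all others for Mtr, Mtrr and Ahcyl1 and below all others for Mat2a, while Mat2b, Ahcy and Ahcyl2 overlap with control.

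Mtr, methionine synthase itself, changed most among the members. Its levels were 49.6, 52.9 and 55.8 CPM in 1C-MIM, 29.2, 28.5 and 27.8 CPM in scramble and 30.9, 29.6 and 28.5 CPM in control. Every 1C-MIM library was above every other library, and scramble overlapped control. The means were 52.7 ± 3.1, 28.5 ± 0.70 and 29.6 ± 1.2 CPM in 1C-MIM, scramble and control (SD, n = 3 each). Mtr was thus 1.78-fold higher in 1C-MIM than in control (log2 fold change 0.83 ± 0.06, 95% interval 0.70 to 0.96, adjusted p = 2.4e-06). Against scramble it was 1.85-fold higher (0.89 ± 0.06, adjusted p = 2.2e-06). By absolute fold change against control, Mtr stood at percentile 89 of all tested genes. In scramble against control its log2 fold change was -0.06, with a 95% interval of -0.19 to 0.07.

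Mtrr encodes methionine synthase reductase, which returns the oxidised cobalamin of methionine synthase to its active form. It stood at 25.8, 25.4 and 26.3 CPM in 1C-MIM, 18.9, 19.9 and 18.6 CPM in scramble and 21.1, 18.1 and 20.0 CPM in control. All 1C-MIM libraries were above the rest, by less than for Mtr. The log2 fold change was 0.39 ± 0.07 against control (95% interval 0.24 to 0.54, adjusted p = 0.000809) and 0.43 ± 0.07 against scramble (adjusted p = 0.000446). The Mtr and Mtrr intervals against control did not overlap.

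Because both genes are read in the same library, their ratio does not depend on the scaling between libraries. The count of Mtr divided by that of Mtrr was 1.92, 2.08 and 2.12 in 1C-MIM, 1.54, 1.43 and 1.49 in scramble and 1.46, 1.64 and 1.42 in control. The mean log2 ratio was 0.44 higher in 1C-MIM than in control and 0.45 higher than in scramble, with no overlap in either comparison. Exact two-sided permutation tests gave p = 0.1 for both, the smallest value that 3 against 3 libraries allow (adjusted p = 0.15 over 9 such tests), so this design cannot pass 0.05.

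Bhmt and Bhmt2 encode the betaine and S-methylmethionine homocysteine methyltransferases of the liver and kidney route. They lie next to each other on chromosome 13 (chr13:93616675-93637961 and chr13:93655720-93674302, GRCm38). Both had 0 counts in all 9 libraries, where 3 counts would correspond to 0.0892 to 0.106 CPM. Bhmt shares 99.4% identity over 1869 of its 2490 transcript bases with Gm5096, which is not listed in the tables, so its counts of 0 are uncertain to the extent that such reads were dropped. The levels of the pair could therefore not be compared. The hepatocyte markers checked alongside summed to 0 to 0.0345 CPM in 1C-MIM, 0.0939 to 0.137 CPM in scramble and 0.0310 to 0.149 CPM in control. None of these 6 markers passed the filter, and Ttr was at 0 in all 9 libraries.

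Mat1a, the adenosyltransferase gene of adult liver, had 1 count in the control library numbered 3 (0.0297 CPM) and 0 in the other 8. The reads for SAM synthesis were those of Mat2a and Mat2b, which encode the catalytic and the regulatory subunit of the widely expressed enzyme.

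Mat2a was the 1 member that fell. Its levels were 177, 172 and 169 CPM in 1C-MIM, 226, 214 and 221 CPM in scramble and 250.5, 230.1 and 230.3 CPM in control. The 3 groups did not overlap with one another, and scramble lay between the other two. Means were 173 ± 3.7 CPM in 1C-MIM, 220.3 ± 6.4 CPM in scramble and 237 ± 12 CPM in control (SD, n = 3 each). Its fold in 1C-MIM over control was 0.728 (log2 fold change -0.46 ± 0.05, 95% interval -0.57 to -0.35, adjusted p = 3.4e-05), and over scramble it was 0.783 (-0.35 ± 0.05, adjusted p = 0.000200).

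Scramble against control gave -0.11 ± 0.05 for Mat2a (95% interval -0.21 to 0.00, adjusted p = 0.999997), which was not called, and -0.06 without the control library numbered 1. Without overlap between those groups were 2 of 7 members, Mat2a and Ahcyl1, against 9.09% of all tested genes. Of the Mat2a exons, 213 bases are shared with Particl, a gene on the opposite strand. The labels do not state strand-aware counting, so reads of the pair may not be separated. The processed pseudogene Gm9523 resembles Mat2a over 1164 of its 2804 transcript bases, at 95.6% identity. Gm9523 is not listed in the tables, so the Mat2a counts are uncertain to the extent that reads could be shared.

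Mat2b did not follow Mat2a. It stood at 62.9, 68.2 and 66.2 CPM in 1C-MIM, 57.8, 60.7 and 62.3 CPM in scramble and 60.5, 61.4 and 63.4 CPM in control. The 1C-MIM libraries overlapped control but not scramble. The log2 fold change was 0.09 ± 0.05 against control (95% interval -0.02 to 0.20, adjusted p = 0.164) and 0.13 ± 0.05 against scramble (adjusted p = 0.0619), neither of them called. Against scramble the call was made without the 3 libraries numbered 1 (adjusted p = 0.0253), without the control library numbered 1 (0.0472) and without the 1C-MIM library numbered 1 (0.0403). Mat2b has 2 listed transcripts. In an edgeR fit of every transcript, the one not used here was called higher against scramble (0.14 ± 0.05, adjusted p = 0.0494). The one used was not (0.13 ± 0.05, adjusted p = 0.0562).

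The catalytic subunit was read 2.81, 2.52 and 2.56 times as often as the regulatory subunit in 1C-MIM, 3.92, 3.52 and 3.54 times in scramble and 4.14, 3.75 and 3.63 times in control. These are ratios of counts and include the lengths of the transcripts. On the log2 scale the ratio was 0.55 lower in 1C-MIM than in control, with means of 1.39 ± 0.08 and 1.94 ± 0.10, and 0.48 lower than in scramble, with a mean of 1.87 ± 0.09. No 1C-MIM library overlapped another group (exact two-sided permutation p = 0.1, adjusted p = 0.15 in each case). Between scramble and control the difference was -0.07, within overlapping values (exact p = 0.5).

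**Figure D2:**
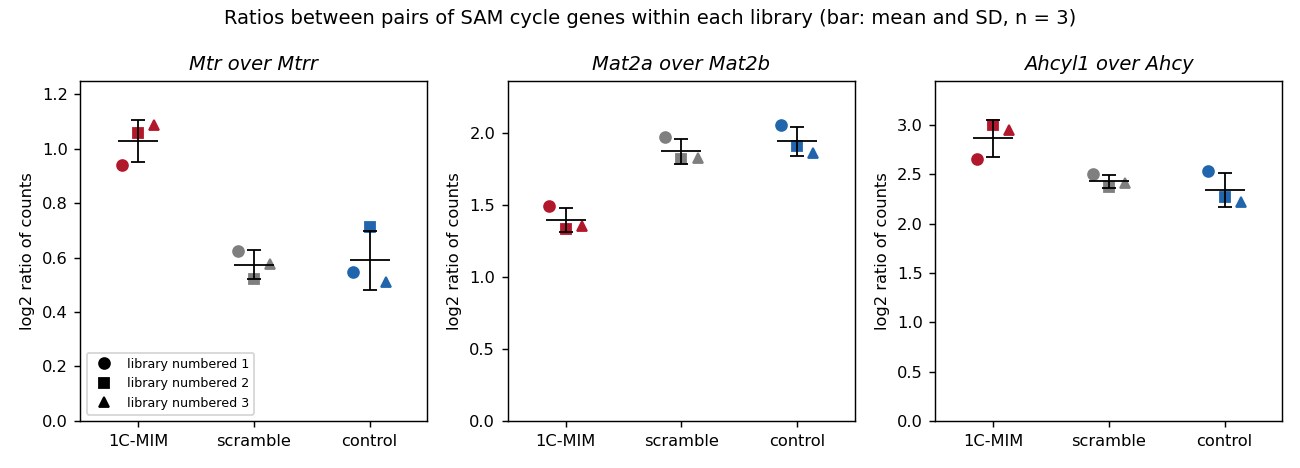
Log2 ratio of the counts of 3 member pairs within each library (Mtr over Mtrr, Mat2a over Mat2b, Ahcyl1 over Ahcy), on axes that start at 0; points are libraries with shapes for their number, and bars give the mean and SD (n = 3). The 1C-MIM points lie apart from both other groups in each panel, below them for Mat2a over Mat2b and above them in the other panels.

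Ahcy encodes adenosylhomocysteinase, the enzyme that removes S-adenosylhomocysteine. Levels were 42.4, 39.9 and 40.4 CPM in 1C-MIM, 42.3, 48.9 and 48.3 CPM in scramble and 40.97, 49.5 and 50.1 CPM in control. The scramble and control libraries numbered 1 sat at the level of 1C-MIM, and the remaining 4 sat above it. In the fit without a replicate block Ahcy was not called (log2 fold change -0.20 ± 0.08 against control, adjusted p = 0.0724; -0.18 ± 0.08 against scramble, adjusted p = 0.0921). With the replicate number as a block and all 9 libraries kept, it was called lower in both comparisons (adjusted p = 0.038 against control and 0.0495 against scramble). Between libraries of the same number, the log2 difference from control was 0.05 for number 1 and -0.31 for numbers 2 and 3. Without the 3 libraries numbered 1, Ahcy was called lower against control (-0.31, adjusted p = 2.9e-05) and against scramble (-0.28, adjusted p = 0.000144). Leaving out the control library numbered 1 alone also gave the call against control (-0.29, adjusted p = 0.00227) and against scramble (-0.19, adjusted p = 0.0167), and leaving out the scramble library numbered 1 gave it against scramble (-0.25, adjusted p = 0.0384). The settings that leave libraries out each take out a control or scramble library that sat at the 1C-MIM level, or both. The replicate block takes none out. The control library numbered 1 is not part of the comparison with scramble, where its removal left the value near that of all 9 libraries (-0.19 beside -0.18). The fit without the 3 libraries numbered 1 keeps only numbers 2 and 3 and was chosen from the principal components of the same data. All these calls draw on the same 9 libraries and are therefore not independent support for a fall of Ahcy. The predicted genes Gm4737 and Gm9826 resemble Ahcy over 2083 and 1299 of its 2543 transcript bases, at 99.7% and 99.2% identity. Neither is listed in the tables, so the Ahcy counts are uncertain to the extent that reads could be shared.

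Ahcyl1 encodes a protein related to adenosylhomocysteinase that is known as IRBIT, a binding partner of the inositol trisphosphate receptor, and it is not known to carry out the hydrolysis. It stood at 266, 318 and 311 CPM in 1C-MIM, 239.7, 253 and 256 CPM in scramble and 238, 239 and 233 CPM in control. All 1C-MIM libraries were highest, with the one numbered 1 nearest to the rest. The log2 fold change was 0.34 ± 0.07 against control (95% interval 0.19 to 0.48, adjusted p = 0.00172) and 0.26 ± 0.07 against scramble (adjusted p = 0.00836). Scramble against control gave 0.08 (adjusted p = 0.999997), with groups that did not overlap.

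Its close relative Ahcyl2 did not share the rise. Values were 36.7, 38.4 and 35.0 CPM in 1C-MIM, 41.9, 39.0 and 38.4 CPM in scramble and 44.7, 39.2 and 38.0 CPM in control, with overlap between 1C-MIM and each other group. The log2 fold change was -0.15 ± 0.07 against control (95% interval -0.30 to 0.01, adjusted p = 0.109) and -0.11 ± 0.07 against scramble (adjusted p = 0.207). Without the control library numbered 1 the value against control was -0.08, and without the scramble library numbered 1 the value against scramble was -0.07. The intervals of Ahcyl1 and Ahcyl2 against control did not overlap. Exons of Ahcyl2 share 282 bases with 4930528J11Rik on the opposite strand.

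Ahcyl1 counts were 6.27, 7.97 and 7.70 times those of Ahcy in 1C-MIM, 5.67, 5.19 and 5.31 times in scramble and 5.80, 4.82 and 4.65 times in control. The 1C-MIM library numbered 1 was the lowest of its group and still above the highest control library. The mean log2 ratio was higher by 0.52 than in control and by 0.44 than in scramble (exact two-sided permutation p = 0.1 in each case, the smallest possible; adjusted p = 0.15).

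**Figure D3:**
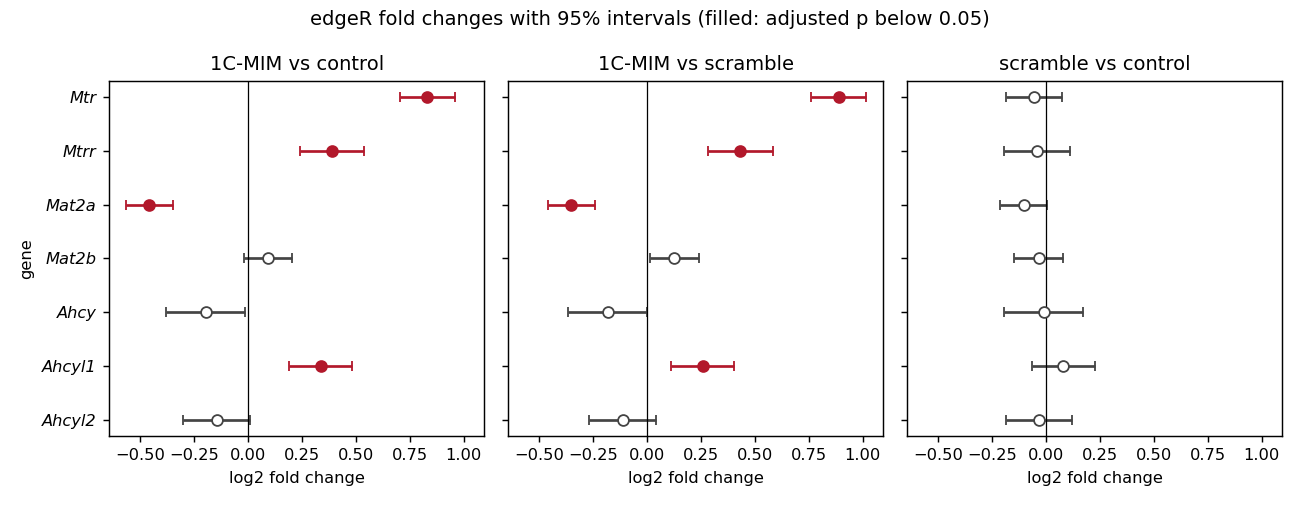
Log2 fold changes of the 7 tested members from the edgeR fit with 95% intervals, in separate panels for 1C-MIM over control, 1C-MIM over scramble and scramble over control; filled symbols have an adjusted p below 0.05. Mtr lies farthest to the right in both 1C-MIM panels and Mat2a farthest to the left, and no symbol is filled in the panel of scramble over control.

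Levels of different genes were compared on the authors' TPM, which account for transcript length. Over the 9 libraries the mean levels were 104 TPM for Mat2a, 94.7 TPM for Ahcyl1, 47.0 TPM for Mat2b, 24.5 TPM for Ahcy, 11.5 TPM for Mtr, 10.5 TPM for Ahcyl2 and 8.15 TPM for Mtrr. The top of this order differed between groups. Ahcyl1 was at 97.7, 116 and 113 TPM in the 1C-MIM libraries, above Mat2a at 89.1, 86.1 and 84.6 TPM. In scramble, Mat2a at 114, 105 and 108 TPM was above Ahcyl1 at 87.9, 90.3 and 91.4 TPM, and in control Mat2a at 129, 111 and 113 TPM was above Ahcyl1 at 88.9, 84.0 and 82.9 TPM. Lower down, Mtr at 16.5 ± 0.90 TPM was above Ahcyl2 at 9.94 ± 0.47 TPM in 1C-MIM. In control, Mtr at 9.19 ± 0.64 TPM and Ahcyl2 at 10.9 ± 1.3 TPM were next to each other, with Ahcyl2 higher in each library. Ahcyl2 and Mtrr were neighbours whose 1C-MIM levels (9.94 ± 0.47 and 9.84 ± 0.17 TPM) differed by less than their spread.

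The wider pathway was read through lists of genes around the cycle. Of 8 genes of cobalamin uptake and handling, 2 rose and 1 fell against control, with a median log2 fold change of 0.11. Over all tested genes 22.9% rose and 24.3% fell, so 2 of 8 is near the background. The risers were Cd320, the cellular receptor for transcobalamin (0.41 ± 0.06, adjusted p = 0.000367), and Tcn2, transcobalamin itself (0.42 ± 0.07, adjusted p = 0.000656). Mmab, which makes adenosylcobalamin, fell by 0.40 ± 0.07 (adjusted p = 0.00108).

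Homocysteine that is not remethylated leaves through transsulfuration, and both of its tested enzymes rose, beside 22.9% of all tested genes. Cbs, cystathionine beta-synthase, averaged 4.79 CPM in 1C-MIM and 2.49 CPM in control (log2 fold change 0.94 ± 0.18, adjusted p = 0.00143). Cth, cystathionine gamma-lyase, averaged 4.16 CPM in 1C-MIM and 2.14 CPM in control (0.96 ± 0.18, adjusted p = 0.00115). Of 4 genes that remove or form adenosine, 1 rose and 2 fell, beside 22.9% and 24.3% of all tested genes. Those that fell were Nt5e, the cell surface nucleotidase that makes adenosine (-1.06 ± 0.15, adjusted p = 0.000310), and Adk, adenosine kinase (-0.26 ± 0.08, adjusted p = 0.0260). The riser was Nt5c2, a cytosolic nucleotidase (0.18 ± 0.07, adjusted p = 0.0374).

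Of 6 methionine transporters, 5 rose and 1 fell against control, with a median of 0.63, and the counts against scramble were also 5 and 1, with a median of 0.56. The shares over all tested genes were 22.9% higher and 24.3% lower against control. Slc3a2, the heavy chain of the large neutral amino acid transporter, averaged 157 CPM in 1C-MIM and 102 CPM in control (0.63 ± 0.05, adjusted p = 6.1e-06). Slc7a5, the light chain of that transporter, rose by 0.63 ± 0.08 (adjusted p = 8.0e-05), and Slc38a2, a sodium-coupled neutral amino acid transporter, by 0.45 ± 0.05 (adjusted p = 3.3e-05). Among 8 genes of SAM decarboxylation and methylthioadenosine salvage, 5 rose and 2 fell, with a median of 0.26. Amd1, which decarboxylates SAM for polyamine synthesis, averaged 108 CPM in 1C-MIM and 72.8 CPM in control (0.57 ± 0.06, adjusted p = 2.5e-05). Mri1, of the salvage route back to methionine, rose by 0.80 ± 0.08 (adjusted p = 2.9e-05), whereas Mtap, the phosphorylase that opens the route, fell by 0.50 ± 0.09 (adjusted p = 0.000837).

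Of 8 tested methyltransferases, most of them for small molecules, 1 rose and 4 fell against control, beside 22.9% and 24.3% of all tested genes. Gamt, which makes creatine, rose by 0.69 ± 0.09 (adjusted p = 0.000112). Inmt, indolethylamine N-methyltransferase, averaged 0.780 CPM in 1C-MIM and 6.65 CPM in control and fell by 3.10 ± 0.58 (adjusted p = 0.00311), and Hnmt, histamine N-methyltransferase, fell by 1.40 ± 0.35 (adjusted p = 0.00643). Against scramble, 1 of these 8 rose and 3 fell, and in each other list around the cycle described here the numbers of rises and falls were those seen against control.

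Mettl16, the mouse gene for the methyltransferase described above with the Mat2a sites, was among the genes that rose. It stood at 38.9, 36.4 and 40.3 CPM in 1C-MIM, 26.7, 30.0 and 29.1 CPM in scramble and 27.3, 29.7 and 30.6 CPM in control. Every 1C-MIM library was above every other library. The log2 fold change was 0.40 ± 0.07 against control (adjusted p = 0.000608) and 0.43 ± 0.07 against scramble (adjusted p = 0.000410). Of the 4 tested genes of SAM sensing and transport, 2 rose and 1 fell against control, beside 22.9% and 24.3% of all tested genes. Slc25a26, the mitochondrial SAM carrier, also rose (0.43 ± 0.14, adjusted p = 0.0235), and Nudt21, a cleavage factor subunit, fell (-0.22 ± 0.08, adjusted p = 0.0379).

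**Figure D4:**
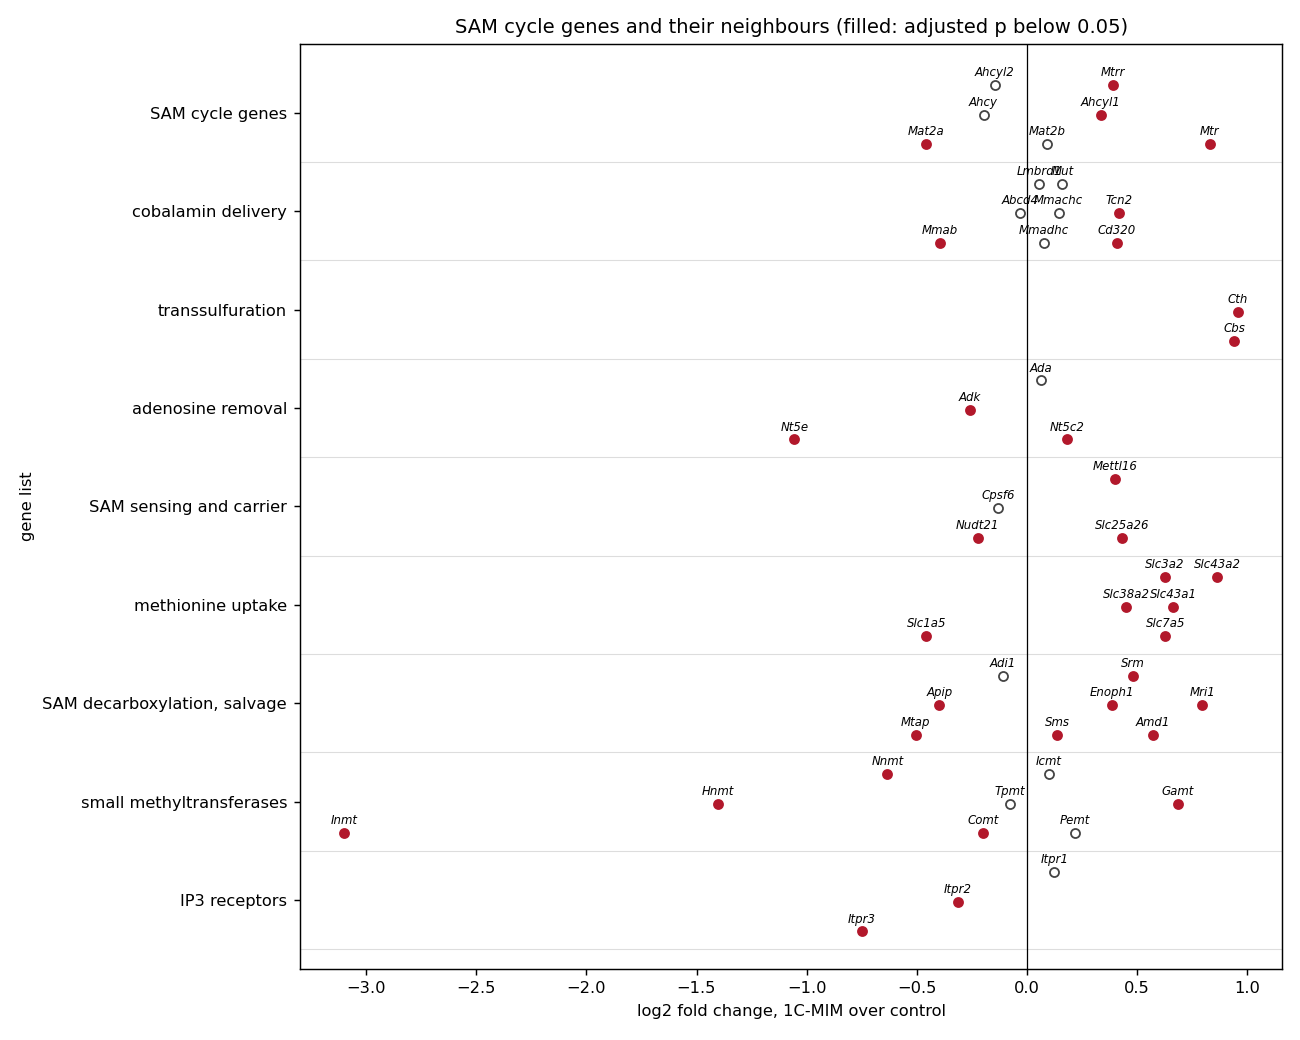
Log2 fold change in 1C-MIM over control of each tested gene in the SAM cycle and in the lists around it, 1 row of genes per list; filled circles have an adjusted p below 0.05 and open circles do not. Both transsulfuration genes and 5 of 6 methionine transporters lie to the right of 0, and members of the SAM cycle lie on both sides.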

How the data were processed

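Per the labels' protocols, 1.3 µg of total RNA entered each SMARTer mRNA-seq library. Build GRCm39 and, among the tools, STAR, Salmon 1.5.2, featureCounts with Subread 2.0.1 and Trim Galore 0.6.7 are named in the submitters' processing notes, without roles. Per the file headers, the deposited tables list 33984 RefSeq transcripts, each with a count and a TPM. The authors' counts are whole numbers and not normalized, and the authors' TPM values were used only to order genes by level.

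Each symbol was represented by its transcript with the highest mean count. Genes passing filterByExpr were tested with edgeR 4.0.16 (limma 3.58.1, R 4.3.3; TMM, robust quasi-likelihood, all 9 libraries in 1 fit, Benjamini-Hochberg adjustment). The members and gene lists were chosen with earlier results of these data known. All members are named, with up to 3 genes of the smallest p per list and the 5 most like Mtr and Mat2a with a mean of at least 5 CPM. In simulated data for 1C-MIM against control (14006 genes), 50 genes were changed at each of the sizes given here. The recovered share was 46% for a 1.25-fold change, 66% for 1.5-fold, 88% for 2-fold and 92% for 4-fold. Of 160 calls 14 were false, a larger share than 0.05. Far fewer genes were changed than the 47.3% called in the data, so these shares do not give the recovery there. Libraries of a group differed by more than sampling noise (chi-square per degree of freedom 3.27 to 47.6). Same-numbered scramble and control libraries deviated together (r 0.17 to 0.48, all 3 pairs over 0.1), and the replicate block called no gene there. Numbers 2 and 3 also did so across numbers (r 0.24 for scramble 2 with control 3, 0.12 for scramble 3 with control 2). The shared number therefore set only the libraries numbered 1 apart. Alternatives were other scalings, filters, tools (DESeq2 1.42.0, limma-voom), thresholds, transcript summaries, the replicate block and libraries left out. The list of genes that supply methyl groups is not reported here.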

Additional observations from a re-analysis of the deposited data

How the results depend on the processing

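Mtr, Mtrr, Mat2a and Ahcyl1 kept their direction and their call in 1C-MIM against control and against scramble under all 22 alternatives. Against control the log2 fold change ranged over 0.78 to 0.90 for Mtr, 0.32 to 0.44 for Mtrr, -0.50 to -0.42 for Mat2a and 0.29 to 0.41 for Ahcyl1, whose highest adjusted p was 0.0101 against control and 0.0417 against scramble. With library size alone Ahcyl2 was called lower against control (-0.19, adjusted p = 0.0451) and Mat2b moved to 0.04 there, uncalled. Ahcy was called lower in both comparisons with library size alone and with the replicate block (adjusted p 0.0294 to 0.0495), and against scramble with the compared groups alone (0.0273); the block also called Mat2b higher against scramble (0.0291). Same-numbered libraries of 1C-MIM and control correlated at r 0.08 to 0.19 and those of 1C-MIM and scramble at 0.03 to 0.15, not all over 0.1, and the labels name no shared batch. With the replicate block 7397 genes (5 members) were called against control, 7309 (6 members) against scramble and 0 in scramble against control. Genes called in scramble against control numbered 30 by DESeq2, 96 without the 3 libraries numbered 1, and 0 to 3 with 1 library left out, the 3 without the control library numbered 1. In that comparison, where no member was called, signs turned: Mtrr 0.0161 and Ahcyl2 0.0014 without the 3 libraries numbered 1, and with 1 library left out Mtrr ranged over -0.1057 to 0.0082, Ahcyl2 over -0.0776 to 0.0418, Ahcy over -0.1007 to 0.0512, and the log2 ratio of Mtr to Mtrr over -0.0567 to 0.0451. The cause was not tested. DESeq2 gave no adjusted p there for 5 members. In the simulated data, where far fewer genes changed than were called in 1C-MIM against control, some changes of each size, 2-fold included, went uncalled.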

Other observations

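The inositol trisphosphate receptors, with which the Ahcyl1 protein is known to interact, did not rise with Ahcyl1. Of 3 tested, 2 fell against control and against scramble, where 24.3% and 23.2% of all tested genes were called lower. Itpr3 stood at 90.8, 82.6 and 80.1 CPM in 1C-MIM, 146, 144 and 144 CPM in scramble and 137, 144 and 145 CPM in control. No 1C-MIM library overlapped the others, and edgeR gave a log2 fold change of -0.75 ± 0.05 against control (adjusted p = 2.3e-06). Itpr2 was at -0.31 ± 0.05 (adjusted p = 0.000547), and Itpr1 was not called (0.12 ± 0.05, adjusted p = 0.0801).

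The genes whose log2 levels were most like those of Mtr over the 9 libraries, among 10502 compared, were Tcf12, Aggf1, Btla, Hlf and Usp11 (Pearson r 0.995 to 0.997). These genes differed widely in the size of their change. Hlf, a transcription factor of the PAR bZIP family, was at 17.3, 27.6 and 32.8 CPM in 1C-MIM, 1.66, 1.91 and 1.46 CPM in scramble and 1.67, 1.67 and 1.49 CPM in control. Tcf12, a partner of myogenic bHLH factors, was at 262, 280.0 and 282 CPM in 1C-MIM, 183, 181 and 173 CPM in scramble and 184, 181 and 180.1 CPM in control. Those most like Mat2a were Zc3h7a, Galc, Nudt16, Ccdc82 and Wnt10b (r 0.991 to 0.994). Wnt10b, a Wnt ligand, was at 4.09, 3.56 and 3.06 CPM in 1C-MIM, 13.5, 11.6 and 12.2 CPM in scramble and 19.5, 13.6 and 11.9 CPM in control. The 9 libraries share 3 groups, so these correlations mostly restate the group difference. After removal of the group means r was 0.66 to 0.89 for the Mtr set and 0.85 to 0.98 for the Mat2a set. The genes were picked for high r over the same libraries, so these values are partly set by that choice and are no separate evidence of likeness.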
